A study of Mus musculus with 44 samples.

Results

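The major urinary protein genes of the mouse form one cluster on chromosome 4. Mup1, Mup3, Mup12, Mup20 and Mup21 were taken from it by their symbols and described in every group of nuclei. These 5 genes are 5 of 20105 measured identifiers and of 18 that carry a Mup name. They were selected on their CPM (counts per 1000000 counts of a library) across the groups of these libraries, so their levels and fold changes are a description and carry no p-value. Counts of members past the threshold that is used for all genes describe this selection too and are no evidence of a change. The animals were male HEP-INTACT mice, whose hepatocytes bear a nuclear tag used for isolation, and the labels give neither the promoter behind the tag nor ages. Steatohepatitis was induced by the FPC diet (fructose, palmitate and cholesterol; 20 weeks) or by CDAHFD, a high-fat diet with defined amino acids that lacks choline (7 weeks), and controls of each study ate a low-fat diet as long. Liver histology placed the fed mice into mild and advanced groups, so these were not randomised, and fibrosis was a trait of the advanced group by design. In each of the 2 studies there were 4 control, 4 mild and 3 advanced mice, and every mouse supplied a pair of libraries, from tagged hepatocyte nuclei and from whole liver nuclei. Mice are numbered within their group by ascending animal number, and the values of a group are always listed in that order.

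Major urinary proteins are small secreted carriers of the lipocalin family. The male mouse liver makes them in large amounts, and they pass through the kidney into urine, where they hold volatile pheromones and mark the identity of the owner. Their transcription in hepatocytes depends on pulsed growth hormone acting through its receptor and STAT5, and also on thyroid hormone and glucocorticoid. The cluster has a central array of very recent, nearly identical copies, to which Mup1 and Mup12 belong, and flanking genes that diverged earlier, among them Mup3, Mup20 and Mup21. Mup20 encodes darcin, the male urinary protein that female mice learn and are attracted to.

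The sequences show how far reads of these genes can be told apart. All 5 genes lie on the minus strand of chromosome 4 (mm10) and were counted over their whole bodies, introns with exons. Mup1 spans 60498013 to 60501960, Mup12 spans 60737381 to 60741281, Mup20 spans 62050235 to 62054117, Mup3 spans 62083476 to 62087312 and Mup21 spans 62147832 to 62150841. The stretch below is 100 bases of the second of 6 coding exons, bases 34 to 133 of that exon, read 5′ to 3′ on the coding strand from the transcripts of the GENCODE annotation of the same build. Capitals mark bases that differ from Mup1. The stretches lie at chr4:60501283-60501382 (Mup1), chr4:60740649-60740748 (Mup12), chr4:62053481-62053580 (Mup20), chr4:62086801-62086900 (Mup3) and chr4:62150196-62150295 (Mup21).
Mup1: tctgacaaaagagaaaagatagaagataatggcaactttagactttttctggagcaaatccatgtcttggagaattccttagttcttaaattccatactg
Mup12: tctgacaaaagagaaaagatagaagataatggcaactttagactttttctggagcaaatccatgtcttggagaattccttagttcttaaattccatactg
Mup20: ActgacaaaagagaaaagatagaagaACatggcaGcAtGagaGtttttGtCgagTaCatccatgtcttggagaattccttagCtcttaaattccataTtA
Mup3: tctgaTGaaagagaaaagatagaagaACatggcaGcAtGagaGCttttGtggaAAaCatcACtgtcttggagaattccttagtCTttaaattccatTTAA
Mup21: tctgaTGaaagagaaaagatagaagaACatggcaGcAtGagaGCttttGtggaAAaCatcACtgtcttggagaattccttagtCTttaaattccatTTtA
Mup12 has 0 differences from Mup1 in this stretch, Mup20 has 14, Mup21 has 20 and Mup3 has 21.

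Over the 447 bases of coding exons 2 to 6, Mup1 and Mup12 were 100% identical. Mup20 shared 90.2% of these bases with Mup1 and 87.2% with Mup3. Mup3 and Mup21 were 97.1% identical to each other and each was 83.4% identical to Mup1. A read of 50 bases, the length used here, can therefore fall where 2 genes read the same. Of all 50-base windows of the mature transcript, 94.8% in Mup1 and 85.4% in Mup12 also occurred in the transcript of another Mup gene. The share was 50.1% in Mup20, where 48.0% matched the pseudogene Mup-ps19 and 1.82% matched Mup1. It was 16.6% in Mup3 and 19.3% in Mup21. Introns were not compared, and the handling of reads with several matches is not given in the sources used here. Values of Mup1 and Mup12 are therefore uncertain as values of single genes, and those of Mup20, Mup3 and Mup21 are less affected by other members of the set.

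Promoter sequences were at hand for Mup3 and Mup21, the neighbours that differ most from Mup1, and are shown because both genes stood lower in diseased livers. They are the 250 bases before the start site, from RefSeq (GRCm38.p6), minus strand, at chr4:62087318-62087567 for Mup3 and chr4:62150842-62151091 for Mup21. Capitals mark the longest run that both share, of 37 bases, from base 153 to base 117 before the start of Mup3 and from base 147 to base 111 before that of Mup21.
Mup3 promoter: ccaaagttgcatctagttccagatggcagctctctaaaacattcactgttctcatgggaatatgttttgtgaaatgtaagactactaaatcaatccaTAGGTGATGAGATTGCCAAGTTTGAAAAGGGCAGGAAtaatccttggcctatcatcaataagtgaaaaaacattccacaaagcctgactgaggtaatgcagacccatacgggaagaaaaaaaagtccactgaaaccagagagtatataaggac
Mup21 promoter: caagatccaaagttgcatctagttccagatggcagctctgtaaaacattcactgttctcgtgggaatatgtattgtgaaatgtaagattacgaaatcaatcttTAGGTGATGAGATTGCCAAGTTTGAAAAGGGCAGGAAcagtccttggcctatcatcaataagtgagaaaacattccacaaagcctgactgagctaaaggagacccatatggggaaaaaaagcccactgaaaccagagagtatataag
A STAT motif (TTCNNNGAA, searched on both strands) was found in 7.02% of 32851 mouse promoters of this length and in 0 of the 14 Mup promoters at hand. The C/EBP motif TTGCNNAA was found in 9.56% of all and in 0 of the 14, and the glucocorticoid receptor motif in 0.387% of all and in 0 of the 14. These counts say only that the letters do not occur in these windows.

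Depth per library lay between 12.1 and 33.1 M counts (median 22.8 M). In tagged nuclei 18 hepatocyte markers summed to 14623 to 24111 CPM in FPC controls and 13110 to 25117 CPM in CDAHFD controls. Whole liver nuclei gave 14884 to 22594 and 14909 to 23764 CPM, so these sums do not set the fractions apart. In FPC controls 12 endothelial markers summed to 57.0 to 94.2 CPM in tagged and 691 to 939 CPM in whole liver nuclei. In CDAHFD controls they summed to 60.2 to 98.2 and 716 to 895 CPM. Markers of other cells were present in the tagged fraction and moved with disease. The sum of 12 cholangiocyte markers was 131 to 142 CPM in FPC control and 1856 to 3226 CPM in FPC advanced hepatocyte libraries, and 107 to 168 against 621 to 969 CPM under CDAHFD. The sum of 12 macrophage markers was 12.5 to 17.5 against 51.1 to 57.6 CPM, and 8.69 to 18.2 against 91.7 to 119 CPM. In advanced whole liver nuclei the cholangiocyte sum was 1616 to 2364 CPM under FPC and 892 to 1137 CPM under CDAHFD. The macrophage sum there was 389 to 480 and 1040 to 1227 CPM. The source of the marker RNA in tagged nuclei was not tested. The libraries of a mouse were compared over the more abundant tested genes, 12758 for FPC and 12757 for CDAHFD. Deviations of a mouse's 2 libraries from their group means went together in 20 of 22 mice. The exceptions were CDAHFD controls 1 and 2, whose hepatocyte libraries each matched the whole liver library of the other (r = 0.857 and 0.760) and not their own (r = -0.218 and -0.292). Both mice are controls of the same study, so comparisons within a fraction use the same groups either way.

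In the livers of control mice the 5 genes were unequal, and Mup3 led. Per kilobase of gene body, Mup3 in hepatocyte nuclei stood at 83.5 ± 30.6 CPM per kb (SD, n = 4) in FPC controls and 107 ± 35.0 in CDAHFD controls. This placed Mup3 at rank 21 and rank 12 of 13132 genes ordered by mean CPM per kb. Mup12 followed in FPC controls with 32.9 ± 24.5 CPM per kb and Mup20 with 26.8 ± 12.6, and their ranges overlapped. Mup1 stood at 10.8 ± 7.63 and Mup21, the lowest, at 5.73 ± 3.30 CPM per kb. In CDAHFD controls the order below Mup3 was Mup20 with 50.3 ± 13.9, Mup12 with 22.1 ± 14.9, Mup21 with 17.1 ± 13.7 and Mup1 with 8.79 ± 5.77 CPM per kb. Control mice differed widely among themselves, and FPC control 4 was the highest of its group for all 5 genes in both fractions.

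Mup3, the most abundant member in control liver, was lower with disease in both diets. In hepatocyte nuclei of the FPC study its level was 197, 371, 254 and 459 CPM in control, 48.8, 85.6, 61.9 and 61.5 CPM in mild and 15.7, 0.421 and 8.11 CPM in advanced mice. No value of one stage overlapped with another stage, and advanced mouse 2 stood far below the other advanced mice. Against controls the fitted log2 difference was -2.58 ± 0.67 (SE) in mild and -5.66 ± 0.88 in advanced mice, which is 5.97-fold and 50.5-fold lower. Leaving out 1 mouse gave -2.76 to -2.31 in mild and, in advanced mice, -6.67 without advanced mouse 1 to -5.11 without advanced mouse 2. In the CDAHFD study the level was 213, 448, 507 and 476 CPM in control, 33.6, 24.3, 15.0 and 19.5 CPM in mild and 4.90, 5.60 and 5.75 CPM in advanced mice. The 3 stages were again apart, and the advanced mice lay close together. The log2 difference was -4.49 ± 0.32 in mild and -6.73 ± 0.41 in advanced mice, or 22.5-fold and 106-fold lower. By mean CPM per kb, Mup3 went from rank 21 in FPC control to rank 3326 in FPC advanced hepatocyte nuclei, and from rank 12 to rank 5581 under CDAHFD. In bulk libraries, fewer nuclei that transcribe a gene and less RNA in each nucleus cannot be told apart.

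Mup12 and Mup1, whose coding exons 2 to 6 are identical, were also lower with disease in both diets. In hepatocyte nuclei of the FPC study Mup12 was at 57.3, 100.0, 87.6 and 269 CPM in control, 11.01, 5.70, 7.14 and 7.00 CPM in mild and 1.31, 0.105 and 0.386 CPM in advanced mice. The stages did not overlap, and control 4 had more than any other mouse of the study. The log2 difference from controls was -4.33 ± 0.61 in mild and -7.99 ± 0.87 in advanced mice. It was -3.60 in mild mice without control 4 and -9.45 in advanced mice without advanced mouse 1. Under CDAHFD Mup12 was at 35.9, 169.6, 63.0 and 76.5 CPM in control, 2.87, 2.77, 3.38 and 3.11 CPM in mild and 0.0778, 0.165 and 0.456 CPM in advanced mice. The advanced value rests on 13 counts in 3 libraries, against 8809 in the 4 controls. The log2 differences were -5.16 ± 0.45 and -8.76 ± 0.68, and the latter was -9.89 without advanced mouse 3. The differences of Mup12 were the lowest of the 5 genes in both diets.

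Mup1 followed the same order of stages. Its mean was below that of Mup12 in control and mild mice, while in advanced hepatocyte nuclei it was 0.562 against 0.599 CPM under FPC and 0.584 against 0.233 CPM under CDAHFD. It was at 21.3, 37.8, 25.2 and 86.7 CPM in FPC control, 7.82, 6.29, 5.97 and 6.11 CPM in FPC mild and 1.34, 0.105 and 0.241 CPM in FPC advanced hepatocyte nuclei. The 4 mild mice lay close together and below every control. The log2 difference was -2.98 ± 0.56 in mild and -6.47 ± 0.79 in advanced mice. It was -2.31 in mild mice without control 4, and in advanced mice -8.36 without advanced mouse 1 and -5.80 without control 4. In the CDAHFD study Mup1 was at 15.6, 67.2, 23.0 and 33.05 CPM in control, 2.30, 1.36, 2.20 and 1.83 CPM in mild and 0.233, 1.15 and 0.365 CPM in advanced mice. Every advanced mouse was below every mild mouse, and advanced mouse 2, the highest of its group, was near the lowest mild mouse. The log2 differences were -4.50 ± 0.48 and -6.45 ± 0.64, the latter -7.23 without advanced mouse 2. Over the 22 hepatocyte libraries log2 CPM of Mup1 and Mup12 correlated at r = 0.981. This is a description of libraries that share 6 groups and of genes that can share reads.

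Mup21, the neighbour of Mup3 with nearly the same coding sequence, differed from it in the FPC study. Its level there was 9.07, 15.2, 13.1 and 31.7 CPM in control, 3.85, 4.67, 8.44 and 11.1 CPM in mild and 5.88, 0.526 and 1.74 CPM in advanced hepatocyte nuclei. Mild mice overlapped with controls and with advanced mice, while every advanced mouse was below every control. The log2 difference was -1.58 ± 0.62 in mild and -2.99 ± 0.74 in advanced mice. It was -1.05 in mild mice without control 4 and -4.38 in advanced mice without advanced mouse 1. Under CDAHFD the level was 8.21, 38.0, 53.0 and 106 CPM in control, 2.83, 2.55, 1.02 and 3.04 CPM in mild and 0, 0.247 and 1.41 CPM in advanced mice. Every mild mouse was below every control. Advanced mouse 1 had 0 counts of 12850897, where 3 counts would be 0.233 CPM, and advanced mouse 3 lay above the lowest mild mouse. The log2 differences were -4.80 ± 0.80 and -6.75 ± 1.06, the latter -9.17 without advanced mouse 3. Mup21 varied widely between CDAHFD controls, with 51.4 ± 41.1 CPM (SD, n = 4) and a range of 8.21 to 106 CPM.

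Mup20, the darcin gene, differed least from controls of the 5 genes. In the FPC study it was at 55.2, 101, 88.1 and 172 CPM in control, 116, 160.0, 152 and 181 CPM in mild and 223, 18.1 and 78.7 CPM in advanced hepatocyte nuclei. All 3 groups overlapped, and the highest and the lowest value of the study were both those of advanced mice, mouse 1 and mouse 2. The log2 difference from controls was 0.28 ± 0.62 in mild and -0.33 ± 0.67 in advanced mice. The sign in advanced mice turns with the scaling, since the mean of plain CPM was 107 ± 105 (SD, n = 3) in advanced and 104 ± 49.1 (n = 4) in control mice, and also with single mice: it was -1.56 without advanced mouse 1, 0.18 without advanced mouse 2 and 0.07 without control 4. Under CDAHFD Mup20 was at 132, 253, 224 and 173 CPM in control, 176, 111, 112 and 120.3 CPM in mild and 110.3, 101 and 120.0 CPM in advanced mice. Every advanced mouse was below every control, while mild mouse 1 overlapped with controls. The log2 differences were -0.92 ± 0.20 and -1.31 ± 0.22, or 1.90-fold and 2.48-fold lower. By mean CPM per kb, Mup20 stood at rank 125 in FPC control and rank 62 in FPC advanced nuclei, and at rank 50 and rank 127 under CDAHFD. The plot of levels by library shows every value in both fractions.

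**Figure D1:**
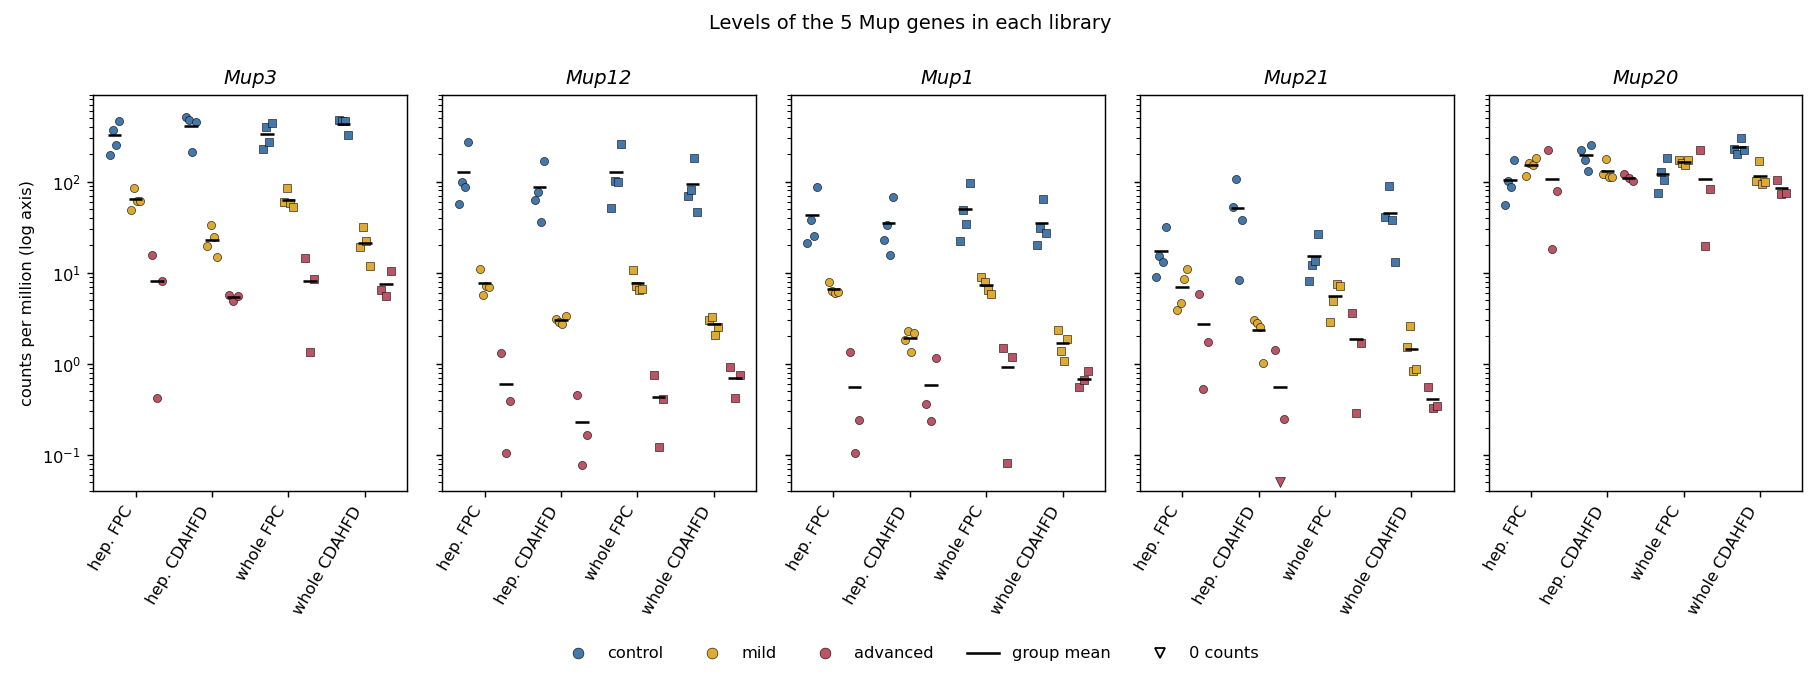
Level of each of the 5 Mup genes in CPM (vertical log axis) in every library, by fraction (hep., tagged hepatocyte nuclei as circles; whole, whole liver nuclei as squares), diet study and stage (colour), with a bar at the group mean and a triangle for a library with 0 counts. Mup3, Mup12 and Mup1 step down from control to mild to advanced in all 4 sets, while Mup20 stays between 18.1 and 300.4 CPM in every library.

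The members were set beside all genes tested, for which the trimmed-mean scaling places the median near 0. In FPC hepatocyte nuclei 3 of 5 members passed the threshold of 0.05 as lower in mild mice, where 11.3% of all genes did, and 4 of 5 in advanced mice, where 20.4% did. In CDAHFD hepatocyte nuclei 5 of 5 passed as lower in mild mice (26.7% of all genes) and in advanced mice (29.2%). Values of control and diseased mice did not overlap for 3 members in FPC mild (4.67% of all genes were apart and lower), 4 in FPC advanced (8.21%), 4 in CDAHFD mild (11.8%) and 5 in CDAHFD advanced mice (10.9%). These counts describe genes chosen for this pattern. The members' median log2 difference was -2.58 in FPC mild, -5.66 in FPC advanced, -4.50 in CDAHFD mild and -6.73 in CDAHFD advanced mice, where the median of all tested genes was 0.04, 0.00, 0.03 and 0.00. Without the scaling, log2 ratios of plain CPM had medians of 0.28 to 0.49 over the genes tested. This range covers the 8 comparisons of a diet with its controls. Mild and advanced mice of a study were set against the same control libraries. The authors' deposited table of hepatocyte comparisons gives log2 fold changes for advanced FPC mice of -5.70 for Mup3, -8.12 for Mup12, -6.61 for Mup1, -3.06 for Mup21 and -0.36 for Mup20. In that deposited table Mup20 in CDAHFD mild mice, at -0.91, did not pass 0.05.

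Hepatocyte markers moved with these counts. Of 18 hepatocyte markers, 13 fell and 0 rose in FPC advanced hepatocyte nuclei (20.4% and 26.5% of all genes), with a median log2 difference of -1.10. Under CDAHFD 7 of 17 tested fell and 1 rose in advanced nuclei (29.2% and 30.3% of all genes), with a median of -0.71 (edgeR's quasi-likelihood test with Benjamini-Hochberg adjustment). Their summed level was 9893 to 13302 CPM in FPC advanced and 11683 to 15547 CPM in CDAHFD advanced mice, overlapping with controls under CDAHFD but not under FPC. Alb, which encodes serum albumin, differed by -0.82 ± 0.27 (adjusted p = 0.025) in FPC advanced and -0.57 ± 0.24 (adjusted p = 0.061) in CDAHFD advanced nuclei. Ttr, the thyroid hormone and retinol carrier transthyretin, fell by 1.12 ± 0.21 under FPC and fell by 1.79 ± 0.28 under CDAHFD. The log2 differences of Mup3, Mup12 and Mup1 were larger in size than those of Alb and Ttr in both diets. The part of the hepatocyte share, and of the RNA behind the cholangiocyte and macrophage markers, in the Mup values was not tested.

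**Figure D2:**
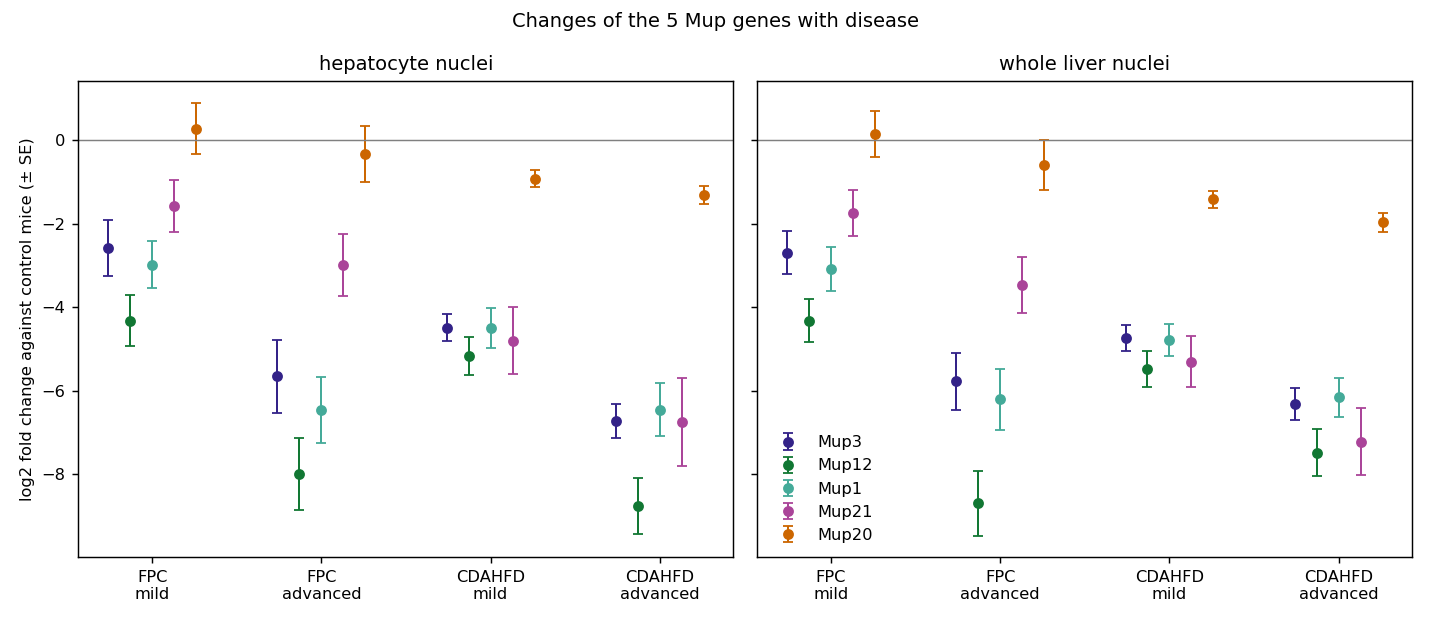
Fitted log2 fold change of each Mup gene against the control mice of the same diet study (vertical axis, points; bars are ± 1 SE), in hepatocyte nuclei and whole liver nuclei, by diet and stage. Mup12 is the lowest point and Mup20 the point nearest to 0 in each of the 8 sets, from -8.76 for Mup12 to -0.33 for Mup20 among the advanced hepatocyte groups.

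Advanced mice were also set against mild mice. In FPC hepatocyte nuclei the log2 difference was -3.08 ± 0.78 for Mup3, -3.66 ± 0.78 for Mup12 and -3.49 ± 0.74 for Mup1. It was -1.41 ± 0.71 for Mup21 and -0.61 ± 0.68 for Mup20, whose mild and advanced values overlapped. The first 3 genes passed the threshold as lower, where 7.49% of all genes did, but Mup3 no longer did without advanced mouse 3 (-3.03) and Mup21 did without advanced mouse 1 (-2.80). Without advanced mouse 1 the values of Mup3, Mup12 and Mup1 were -4.09, -5.12 and -5.38. In CDAHFD hepatocyte nuclei the differences were -2.24 ± 0.34 for Mup3, -3.60 ± 0.70 for Mup12, -1.96 ± 0.66 for Mup1, -1.95 ± 1.06 for Mup21 and -0.38 ± 0.22 for Mup20. Mup3 and Mup12 passed, where 1.52% of all genes were lower. Mup3 did not pass without advanced mouse 2 (-2.25), and Mup12 did not pass without any one of advanced mice 1 (-3.26) and 2 (-3.40) or mild mice 1 (-3.62) and 2 (-3.64). Without advanced mouse 3 Mup12 was at -4.72 and Mup21 at -4.37, and without advanced mouse 2 Mup1 was at -2.73.

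Because the members were lower to unequal degrees, the makeup of their joint counts differed by stage. The 5 genes together came to 613 ± 294 CPM (SD, n = 4) in FPC control, 238 ± 36.4 in FPC mild and 119 ± 117 (n = 3) in FPC advanced hepatocyte nuclei. Under CDAHFD the sums were 779 ± 255, 160.4 ± 38.3 and 117 ± 10.2 CPM. Mup3 made up 54.2 ± 6.43% of these counts in FPC control, 27.0 ± 4.04% in mild and 5.87 ± 3.48% in advanced mice, and 53.0 ± 5.25%, 14.2 ± 2.56% and 4.65 ± 0.495% under CDAHFD. Mup20 made up 17.0 ± 1.244% in FPC control, 63.8 ± 3.11% in mild and 90.8 ± 2.92% in advanced mice. Under CDAHFD the share of Mup20 was 26.1 ± 5.14%, 81.1 ± 2.30% and 94.2 ± 1.13%. The share needs no scaling between libraries, and its 3 stages did not overlap in either diet. It was also high in FPC advanced mouse 2, whose Mup20 level was the lowest of all mice. In whole liver nuclei the share of Mup20 was 19.0 ± 1.03%, 66.4 ± 4.24% and 90.1 ± 2.23% for FPC, and 28.7 ± 4.90%, 81.2 ± 2.97% and 89.9 ± 3.58% for CDAHFD.

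**Figure D3:**
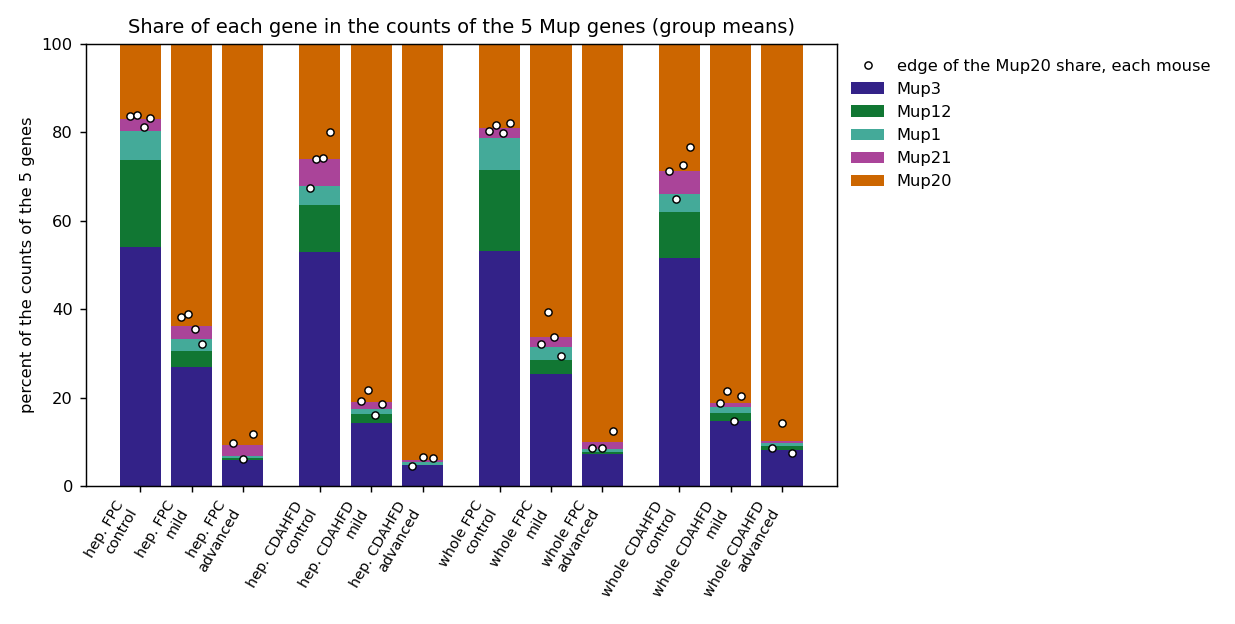
Share of each gene in the summed counts of the 5 Mup genes (vertical axis, percent; stacked bars are group means) in the 12 groups of fraction, diet study and stage, with a circle at the lower edge of the Mup20 share in each mouse. The Mup20 share in hepatocyte nuclei is 17.0% in FPC control and 90.8% in FPC advanced mice, and 26.1% and 94.2% under CDAHFD.

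Whole liver nuclei of the same mice gave the same ordering of stages. Mup3 in whole liver was at 226, 402, 272 and 437 CPM in FPC control, 59.6, 84.0, 57.4 and 52.3 CPM in FPC mild and 14.6, 1.35 and 8.48 CPM in FPC advanced mice. Under CDAHFD Mup3 was at 462, 327, 477 and 467 CPM in control, 31.5, 21.99, 11.9 and 19.0 CPM in mild and 5.60, 10.4 and 6.43 CPM in advanced mice. The stages did not overlap in either diet. Mup20 in whole liver was at 75.2, 126, 105 and 179.7 CPM in FPC control, 173, 160.0, 153 and 174 CPM in FPC mild and 219, 19.5 and 82.8 CPM in FPC advanced mice. Under CDAHFD Mup20 was at 300.4, 223, 229.8 and 203 CPM in control, 167, 95.1, 100.0 and 102 CPM in mild and 73.6, 74.3 and 105 CPM in advanced mice. Mup20 overlapped between all FPC stages, and under CDAHFD every control was above every mild and advanced mouse.

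The fitted whole liver differences of advanced mice from controls were -5.78 ± 0.68 under FPC and -6.32 ± 0.38 under CDAHFD for Mup3. They were -8.69 ± 0.78 and -7.49 ± 0.56 for Mup12, -6.21 ± 0.73 and -6.16 ± 0.48 for Mup1, and -3.46 ± 0.67 and -7.22 ± 0.80 for Mup21. For Mup20 they were -0.59 ± 0.60 and -1.96 ± 0.23, and the FPC value was -1.71 and passed the threshold without advanced mouse 1. As lower, 4 of 5 members passed in FPC mild (18.2% of all genes), 4 in FPC advanced (28%), 5 in CDAHFD mild (24.5%) and 5 in CDAHFD advanced mice (25.9%). Mup21 in FPC mild mice differed by -1.74 ± 0.55 and did not pass without control 4 (-1.31), mild mouse 1 (-1.55) or mild mouse 2 (-1.69). Between advanced and mild whole liver, 3 of 5 members passed under FPC (8.98% of all genes; without advanced mouse 1 also Mup20 at -1.85 and Mup21 at -2.61) and Mup3 alone under CDAHFD (1.05%), at -1.59 ± 0.31. That value did not pass without any one of 5 mice and then lay between -1.64 and -1.32. The 5 are advanced mice 1 and 3 and mild mice 1, 2 and 4.

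Between the fractions of a mouse the levels differed in both directions. The hepatocyte level divided by the whole liver level had a median over 22 mice of 0.910 for Mup1, 0.975 for Mup12, 0.996 for Mup20, 1.02 for Mup3 and 1.20 for Mup21. For the sum of the 5 genes the ratio ran from 0.388 to 1.54 over all mice, and from 0.734 to 1.43 without CDAHFD controls 1 and 2. Single genes varied more: without those 2 mice the ratio ran from 0.201 to 1.67 for Mup1, 0.184 to 1.74 for Mup12, 0.669 to 1.497 for Mup20, 0.311 to 1.26 for Mup3 and 0 to 3.05 for Mup21. Over the 14 other control and mild mice it ran from 0.741 to 1.67, 0.799 to 1.35, 0.669 to 1.18, 0.818 to 1.26 and 0.953 to 3.05 in the same order. Of the 5 genes, Mup12 differed most between the fractions of those 2 mice: control 1 had 35.9 CPM in hepatocyte and 179.8 CPM in whole liver nuclei, and control 2 had 169.6 and 46.1 CPM. The hepatocyte CPM of control 2 over the whole liver CPM of control 1 gave a ratio of 0.943 for Mup12. The hepatocyte CPM of control 1 over the whole liver CPM of control 2 gave 0.779. This second ratio was 0.581 for Mup1, 0.590 for Mup20, 0.635 for Mup21 and 0.652 for Mup3. Whether the libraries of these mice were exchanged was not tested. Without the mouse as a block, 0 of 5 members passed in any of the 6 comparisons of the fractions, where 17.5% of all genes did in FPC control, 26.2% in FPC mild, 22.5% in FPC advanced, 31% in CDAHFD control, 50.7% in CDAHFD mild and 43.2% in CDAHFD advanced mice. Mup12 passed in CDAHFD controls without control 1 (0.86), and in CDAHFD advanced mice without mouse 3 Mup12 was at -2.17 and Mup21 at -1.34. With the mouse as a block, Mup21 passed as higher in hepatocyte nuclei of FPC control (0.34 ± 0.11), FPC mild (0.47 ± 0.13) and FPC advanced mice (0.57 ± 0.20), where 21.4%, 27.6% and 22.2% of all genes did. Mup20 passed as higher in CDAHFD advanced mice (0.50 ± 0.18, 25.8% of all genes). Without the block these 4 values were 0.37 ± 0.60, 0.49 ± 0.63, 0.72 ± 0.79 and 0.49 ± 0.24.

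**Figure D4:**
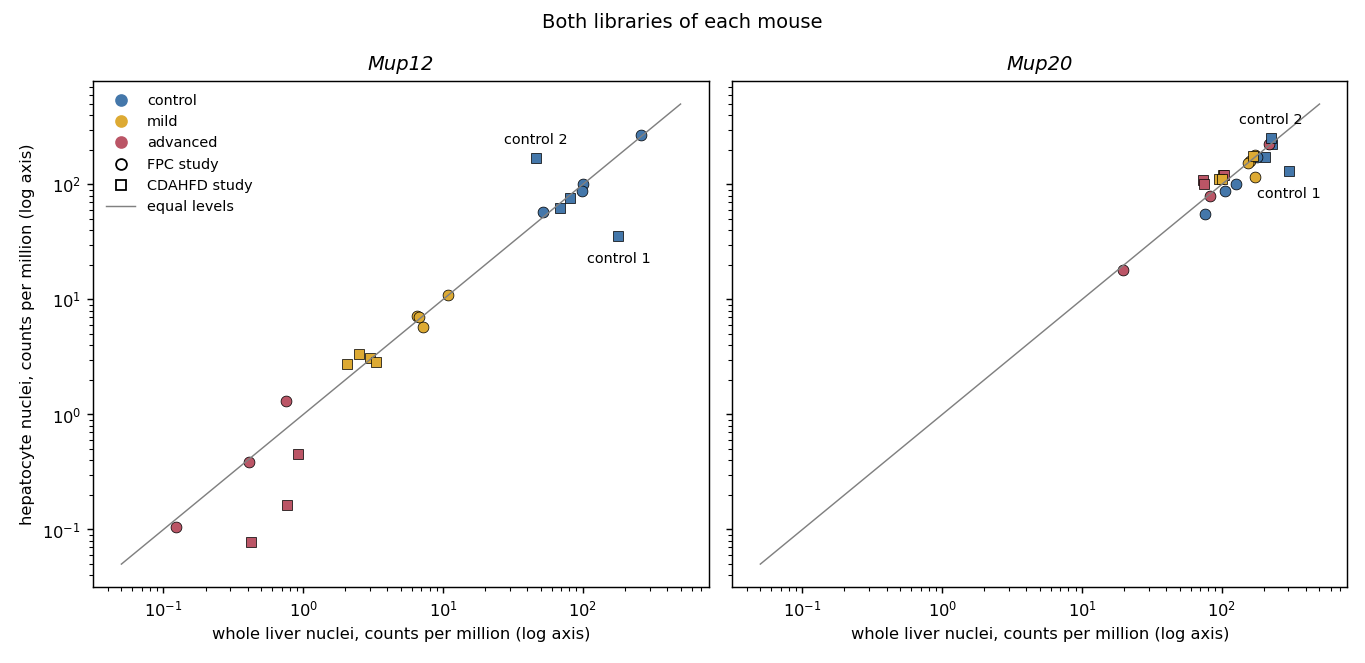
Level of Mup12 and of Mup20 in whole liver nuclei (horizontal log axis) against hepatocyte nuclei (vertical log axis) of the same mouse, both in CPM, with stage as colour, diet study as shape and a line at equal levels. Most mice lie near the line. CDAHFD control 1 lies below it for both genes, and for Mup12 control 2 of that study lies above it and the CDAHFD advanced mice lie below it.

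Both diets were compared by the difference of their changes in hepatocyte nuclei, the CDAHFD change minus the FPC change. In mild mice it was -1.83 ± 0.75 for Mup3, -1.44 ± 0.75 for Mup1, -0.76 ± 0.73 for Mup12, -1.12 ± 0.69 for Mup20 and -3.14 ± 1.04 for Mup21. All 5 values were below 0, so the CDAHFD change was the more negative, with Mup20 at 0.28 under FPC and -0.92 under CDAHFD, and 0 of 5 passed the threshold where 12.2% of all genes did. In advanced mice it was -1.02 ± 0.85 for Mup3, 0.07 ± 1.19 for Mup1, -0.72 ± 1.2 for Mup12, -0.92 ± 0.75 for Mup20 and -3.72 ± 1.29 for Mup21, and 0 of 5 passed where 11.9% of all genes did. Without FPC advanced mouse 1 these values were -0.01 for Mup3, 1.95 for Mup1, 0.74 for Mup12, 0.31 for Mup20 and -2.33 for Mup21, so the signs of Mup12 and Mup20 rest on that mouse. Without CDAHFD advanced mouse 3 Mup12 was at -1.85. Mup21 was the member nearest to the threshold. It passed in mild mice without FPC control 4 (-3.67) or CDAHFD control 1 (-3.50), where Mup1 also passed without FPC control 4 (-2.12). In advanced mice Mup21 passed without CDAHFD advanced mouse 3 (-6.13), CDAHFD control 1 (-4.08), FPC advanced mouse 2 (-4.19) or FPC control 4 (-4.25). The diets differ in length as well as in makeup, 20 against 7 weeks, and these cannot be told apart.

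Over all 12 groups, Mup1, Mup3 and Mup12 shared the order of stages, though not that of groups within a stage. The 4 control groups stood highest and overlapped among themselves, and the lowest control group was apart from the highest FPC mild group. The FPC mild groups overlapped with each other and were apart from the CDAHFD mild groups. The CDAHFD mild groups overlapped with the next advanced group for Mup1 and Mup3 but not for Mup12. Advanced groups came last, and each overlapped with the next, from 8.15 ± 6.64 to 5.42 ± 0.452 CPM for Mup3. Mup21 was highest in CDAHFD controls at 51.4 ± 41.1 CPM in hepatocyte nuclei, and followed the stages within each diet but not across them: FPC advanced hepatocyte nuclei, at 2.72 ± 2.81 CPM, had a mean above that of CDAHFD mild ones, at 2.36 ± 0.916 CPM. Every group of Mup21 overlapped with the next. For Mup20 each group also overlapped with the next, from 239 ± 42.6 CPM in CDAHFD control to 84.2 ± 17.6 CPM in CDAHFD advanced whole liver nuclei.

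Mup20 was less like the other members across groups than within them. Over the 22 hepatocyte libraries its log2 CPM correlated with the other 4 members at r = 0.560 to 0.699, while Mup1 and Mup3 correlated at 0.965. For deviations from the group means, which remove the stages, Mup20 correlated at r = 0.933 with Mup3, 0.781 with Mup12, 0.741 with Mup1 and 0.647 with Mup21. For Mup21 this was close to the r = 0.621 across groups. Advanced FPC mouse 2 had the lowest level of its group for all 5 genes in both fractions. How far these correlations rest on that mouse was not tested, and rank correlations between members were not computed. The libraries share their groups and scaling, so these values are descriptions. By the same measure against the mean of the 5 members, the most alike of 13803 genes were Mup13 (r = 0.981) and Mup9 (0.974), then Ehmt1 (0.966), a histone methyltransferase gene, Slco1a1 (0.966) and Akr1c14 (0.963), a hydroxysteroid dehydrogenase gene. Ehmt1 held this place only with the trimmed-mean scaling, as plain CPM gave 0.668. For deviations from group means over the same 22 libraries they were Mup13 (0.886), Mup9 (0.879), Tmcc3 (0.838), Frmd4b (0.820) and Slc20a2 (0.819), a phosphate transporter gene. These places depended on the measure. By rank correlation (Spearman) of the same deviations the 5 genes stood at places 51, 23, 31, 25 and 59, in the same order.

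Other genes of the cluster gave 13 measured identifiers, 8 of them with too few counts to be tested. Among those 8, Mup11, Mup18 and Mup19 were counted over only 25, 4 and 1 bases. Their few counts therefore do not show low levels of these genes. The 5 tested ones all fell in advanced hepatocyte nuclei of both diets, where 20.4% of all genes fell under FPC and 29.2% under CDAHFD. Mup8 differed by -6.36 ± 0.74 (adjusted p = 2.5e-05) under FPC and -5.37 ± 0.71 (adjusted p = 6.7e-05) under CDAHFD. Mup9 differed by -5.71 ± 0.85 (adjusted p = 2.5e-04) and -7.47 ± 0.89 (adjusted p = 4.4e-05), and Mup13 by -5.74 ± 0.86 (adjusted p = 2.6e-04) and -5.68 ± 0.56 (adjusted p = 9.0e-06). These are edgeR quasi-likelihood tests with Benjamini-Hochberg adjustment over all genes, as are the tests that follow. Mup8, Mup9 and Mup13 belong to the central array and can share reads with Mup1 and Mup12, so they are not separate evidence. The identifier named Mup2 fell by 2.84 ± 0.35 under FPC and fell by 2.88 ± 0.41 under CDAHFD. The identifier named Mup15 fell by 3.77 ± 0.46 under FPC and fell by 2.84 ± 0.35 under CDAHFD. The counted spans of these 2 identifiers each cover 2 other Mup genes and miss the RefSeq position of the named gene. The span under Mup2 covers Mup14 and Mup15, and that under Mup15 covers Mup7 and Mup2. These values are therefore not those of the named genes. In mild mice 4 of the 5 fell under FPC (11.3% of all genes) and 5 under CDAHFD (26.7%).

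Male-biased liver genes, which like the Mup genes are driven by male-pattern growth hormone, were measured in the same nuclei and fell. Of 20 such genes tested, 15 fell and 0 rose in FPC advanced hepatocyte nuclei, with a median log2 difference of -3.08, and 14 fell and 0 rose in CDAHFD advanced nuclei, with a median of -3.07. Medians over all genes tested were 0.00 in both, and 20.4% and 29.2% of all genes fell. In mild mice 12 of 20 fell in each diet, where 11.3% of all genes fell under FPC and 26.7% under CDAHFD. This list and those that follow were chosen with earlier results of these data known. Their counts and p-values are therefore descriptions. Hsd3b5, a male-specific steroid reductase, was at 302, 339, 523 and 627 CPM in FPC control, 71.5, 26.6, 40.3 and 26.8 CPM in FPC mild and 0.229, 0.579 and 0.628 CPM in FPC advanced mice. Its stages did not overlap, and advanced mouse 2, the lowest for the Mup genes, was not the lowest here. Hsd3b5 differed by -10.35 ± 0.65 (adjusted p = 1.3e-07) under FPC and -9.95 ± 0.95 (adjusted p = 1.0e-05) under CDAHFD. Slco1a1, an organic anion uptake transporter, differed by -6.29 ± 0.69 (adjusted p = 2.1e-05) and -6.91 ± 0.37 (adjusted p = 1.6e-07). Moxd1, a monooxygenase gene, had differences of -9.66 ± 2.90 (adjusted p = 0.019) and -10.20 ± 1.95 (adjusted p = 0.0011) with a wide spread among controls. Elovl3, a fatty acid elongase, fell by 4.86 ± 1.25 under FPC and fell by 5.27 ± 0.93 under CDAHFD, and Cyp7b1, an oxysterol hydroxylase, fell by 4.16 ± 1.11 under FPC and fell by 4.26 ± 0.62 under CDAHFD. Cyp4a12a, a male-specific fatty acid hydroxylase, did not pass, at -0.82 ± 0.82 (adjusted p = 0.45) and -1.74 ± 0.95 (adjusted p = 0.14).

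Several female-biased liver genes rose in these nuclei. Of 13 tested under FPC, 6 rose and 0 fell in advanced mice with a median of 1.45, and of 12 tested under CDAHFD, 6 rose and 0 fell with a median of 1.97. Of all genes, 26.5% and 30.3% rose. Cux2, a female-specific repressor of male-biased genes, differed by 4.74 ± 0.73 (adjusted p = 2.7e-04) under FPC and 1.93 ± 0.39 (adjusted p = 0.0011) under CDAHFD. In FPC advanced mice it was at 9.64, 119 and 26.1 CPM against 1.81, 2.17, 0.592 and 1.12 CPM in controls, and advanced mouse 2 was the highest. Cyp2a4 differed by 1.92 ± 0.70 (adjusted p = 0.043) and 3.80 ± 0.34 (adjusted p = 3.9e-06). Cyp2b9 differed by 0.35 ± 1.58 (adjusted p = 0.88) and 5.79 ± 0.85 (adjusted p = 1.8e-04); both are cytochromes P450 of female liver. Ntrk2, a neurotrophin receptor gene, differed by 2.91 ± 0.77 (adjusted p = 0.01) and 0.80 ± 0.85 (adjusted p = 0.44). Prom1 rose by 5.23 ± 0.29 and 4.03 ± 0.45, but it is also on the list of cholangiocyte markers, of which 11 of 11 tested rose under FPC (median 4.95) and 11 of 12 under CDAHFD (median 3.97). The source of the Prom1 RNA in tagged nuclei was not tested.

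**Figure D5:**
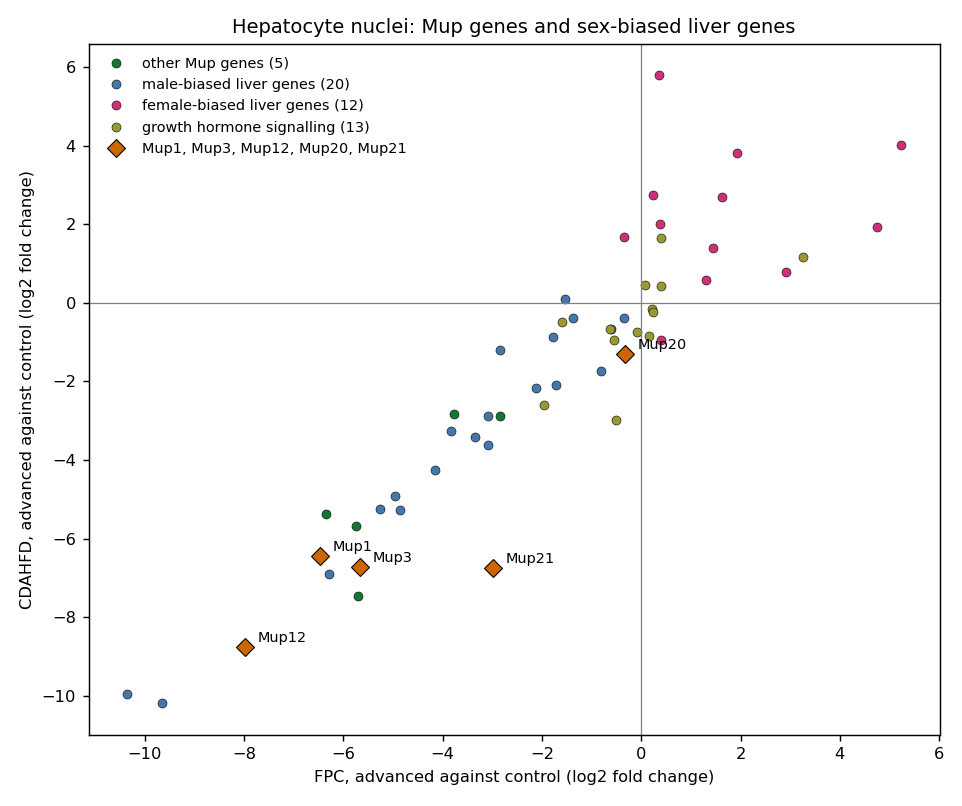
Log2 fold change of advanced against control hepatocyte nuclei in the FPC study (horizontal axis) and the CDAHFD study (vertical axis) for the 5 Mup genes (diamonds), other Mup genes, male-biased and female-biased liver genes and genes of growth hormone signalling (circles, by colour; genes tested in both studies). Mup12 lies at -7.99 and -8.76 among the lowest points, and Mup20 at -0.33 and -1.31.

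Genes of growth hormone signalling were mixed. Of 13 tested, 2 fell and 1 rose in FPC advanced nuclei (median 0.07), and 3 fell and 1 rose in CDAHFD advanced nuclei (median -0.50). Of all genes 20.4% fell and 26.5% rose under FPC, and 29.2% and 30.3% under CDAHFD, so these counts are not above the background. Ghr, the growth hormone receptor, fell by 1.97 ± 0.33 (adjusted p = 2.9e-04) under FPC and fell by 2.60 ± 0.22 (adjusted p = 2.2e-06) under CDAHFD. Stat5b, the transcription factor that carries the signal to male-biased genes, fell by 0.55 ± 0.17 (adjusted p = 0.018) under FPC and fell by 0.94 ± 0.13 (adjusted p = 6.2e-05) under CDAHFD. Socs2, a feedback inhibitor that the pathway itself induces, differed by 3.25 ± 0.83 (adjusted p = 0.0079) and 1.15 ± 0.98 (adjusted p = 0.33). It was at 8.69, 79.8 and 14.7 CPM in FPC advanced and 4.65, 3.86, 1.30 and 0.901 CPM in FPC control mice, and advanced mouse 2 again had the highest value. Cish, another induced inhibitor, was at 0.39 ± 0.93 (adjusted p = 0.77) and 0.42 ± 1.21 (adjusted p = 0.78). Igf1, the main endocrine target of growth hormone in liver, was at -0.09 ± 1.03 (adjusted p = 0.95) and -0.75 ± 0.98 (adjusted p = 0.53). Bcl6, a repressor that opposes STAT5 at sex-biased genes, did not pass under FPC at -0.51 ± 0.76 (adjusted p = 0.62) and fell under CDAHFD at -2.99 ± 0.42 (adjusted p = 1.0e-04). Socs3, an inhibitor induced by cytokines, was at 0.40 ± 0.38 (adjusted p = 0.41) and 1.65 ± 0.48 (adjusted p = 0.011).

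Among 17 other hormone receptors and liver factors, 9 fell and 1 rose in FPC advanced nuclei (median -0.69), where 20.4% and 26.5% of all genes did. In CDAHFD advanced nuclei 9 fell and 2 rose (median -0.71), where 29.2% and 30.3% of all genes did. Thrb, the thyroid hormone receptor beta gene, fell by 1.09 ± 0.22 under FPC and fell by 1.86 ± 0.14 under CDAHFD. Nr3c1, the glucocorticoid receptor, fell by 0.69 ± 0.15 under FPC and fell by 1.0 ± 0.10 under CDAHFD. Zhx2, a factor known to control Mup and other liver genes, was at -0.23 ± 0.15 (adjusted p = 0.24) under FPC and -0.78 ± 0.12 (adjusted p = 2.1e-04) under CDAHFD. Cebpa, which encodes a factor of hepatocyte identity, fell under FPC at -1.28 ± 0.29 (adjusted p = 0.0027) and did not pass under CDAHFD at -0.62 ± 0.32 (adjusted p = 0.11). Cebpb, which is induced in inflammation, was at 0.20 ± 0.36 (adjusted p = 0.69) and 1.79 ± 0.21 (adjusted p = 2.5e-05). Nr1i3, the xenobiotic receptor CAR, fell by 1.72 ± 0.32 under FPC and fell by 0.69 ± 0.23 under CDAHFD.

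Other lipocalins and plasma carriers went both ways. Of 12 tested, 9 fell and 2 rose in FPC advanced nuclei (median -1.0), where 20.4% and 26.5% of all genes did. In CDAHFD advanced nuclei 5 fell and 3 rose (median -0.52), where 29.2% and 30.3% of all genes did. The counts that rose are not above the background. Lcn2, the iron-binding lipocalin of inflammation, rose by 6.41 ± 0.59 and 7.53 ± 0.45. It was at 0, 0, 0.118 and 0.129 CPM in FPC control and 4.18, 8.10 and 10.9 CPM in FPC advanced mice. Orm2, an acute phase lipocalin, rose by 1.80 ± 0.40 and 4.20 ± 0.47. Ptgds, a lipocalin with prostaglandin synthase activity, fell by 2.30 ± 0.60 under FPC and fell by 2.35 ± 0.71 under CDAHFD. The size of these differences was below that of Mup3, Mup12 and Mup1 for every carrier that fell.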

How the data were processed

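RNA of nuclei from 22 male mice was measured in 44 libraries, 12 groups in all. Per the labels' protocols, 50 to 100 ng of nuclear RNA went into a stranded kit that does not select poly-adenylated RNA, and inserts were read as paired 50-base reads. Per the submitters' processing notes, mm10, DESeq2 1.24.0 and STAR 2.4.2a were used; the counter, its strand setting and its treatment of reads with several matches are not given in the sources used here. The authors deposited raw counts, whole numbers for 20105 RefSeq identifiers, and a table of hepatocyte comparisons with each log2 fold change and its adjusted p-value, per the file headers. For 94.7% of 13147 genes in that deposited table the counted length equals the gene's length, so introns were counted. The deposited table names 13145 identifiers, RefSeq names 6881 others, and 79 had no symbol.

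CPM is the deposited count per 1000000 counts of the library. Groups were compared with edgeR 4.0.16 in R 4.3.3 (limma 3.58.1): trimmed-mean scaling, filterByExpr, robust quasi-likelihood dispersions, and calls at 0.05 after Benjamini-Hochberg adjustment over all genes. Each SE divides the size of the log2 fold change by the root of F. A fit held the 11 libraries of a fraction and diet, the 22 libraries of a diet for the fractions and the 22 hepatocyte libraries for the diet difference. The scripts were tested on simulated data. Replicates are separate mice, and libraries of a group were further apart than counting allows (chi-square over degrees of freedom of 20.0 to 272), so mice and not counting error set the precision. Limits for 0 counts (3 counts) cover counting error only.

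Mouse numbers in the labels pair the fractions. Deviations of a mouse's 2 libraries correlated by more than 0.1, and most highly with each other, in 20 of 22 mice. The mouse as a replicate block, DESeq2 1.42.0, its size factors as scaling, other filters, fits to 2 groups only and leaving out each mouse were tried as alternatives; exchanging or leaving out the libraries of CDAHFD controls 1 and 2 was added after seeing the data.

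The 5 genes, the gene lists and the rule for naming genes were chosen with earlier results of these data known. The rule names all 5 genes, other tested Mup genes, a fixed set of growth hormone and sex-biased genes, the 3 largest changes past the threshold of each list per diet in advanced mice, and the 5 genes most like the members by each of 2 correlations. Where the 3 largest are named by the rule, some are left out of the text for length. A gene of the fixed set is not reported here. Likeness used log2 CPM with a prior count of 2. Sequences are from GENCODE transcripts of GRCm38 and RefSeq promoters of GRCm38.p6.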

Additional observations from a re-analysis of the deposited data

Results flagged for a closer look

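Of 40 groups of 4 libraries examined for the 5 genes, 4 held a value whose gap to the nearest other value was unusually large for the range of its group. Chance alone gives about 1 in 20 such groups. Mup3 in whole liver nuclei of CDAHFD controls was lowest in control 2, at 326.7 CPM, where the gap was 0.901 of the range. Mup12 in whole liver nuclei of FPC mild mice was highest in mild mouse 1, at 10.8 CPM (0.850 of the range). Mup20 was highest in CDAHFD mild mouse 1 in both fractions, at 175.7 CPM in hepatocyte nuclei (0.862) and 167.2 CPM in whole liver nuclei (0.908).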

How the results depend on the processing

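Fold changes of members between stages, and their diet differences, kept their sign in every refit that kept all mice; plain CPM means turned the sign of Mup20 in FPC advanced hepatocyte nuclei, as did leaving out 1 mouse. Between the fractions, 9 values near 0 changed sign (-0.08 to 0.01), among them, with the mouse as a replicate block, Mup1 in FPC mild (0.01) and Mup3 in FPC advanced mice (-0.02). The members' 547 values under alternatives other than leaving out 1 mouse moved by less than their spread. Leaving out 1 mouse moved 20 such values, did not move 680 and reversed none that had passed the threshold. Counts of genes past the threshold moved by over 1.5 times in the following comparisons, and the cause was not tested. Advanced against mild CDAHFD hepatocyte nuclei gave 375 genes, 1133 with DESeq2 and 745 with the libraries of these groups only; whole liver gave 265, 717 and 483. Without 1 mouse these counts ran from 60 to 309 and from 66 to 241. Advanced against mild FPC whole liver gave 3150 genes and 1956 to 3729 without 1 mouse. The diet difference gave 1638 genes in advanced and 1689 in mild mice, and 927 to 2045 and 889 to 2111 without 1 mouse. With the mouse as a replicate block, hepatocyte against whole liver gave 5767 genes in place of 2512 in FPC control (3069 higher and 2698 lower in place of 193 and 2319), 7223 in place of 3759 in FPC mild (3958 and 3265 in place of 1031 and 2728) and 6421 in place of 3226 in FPC advanced mice (3186 and 3235 in place of 692 and 2534). The block changed the call of the members named beside the fractions and of no other member. In CDAHFD controls the fractions gave 4444 genes (2092 higher, 2352 lower), 2772 with DESeq2's size factors (340 higher, 2432 lower), 2050 with these groups only (129 and 1921), 2075 without controls 1 and 2 (141 and 1934) and 8151 with their libraries exchanged under the block (5524 and 2627). Of the members, DESeq2 also called Mup1 in advanced against mild CDAHFD hepatocyte nuclei (-1.90), Mup1 (-1.40) and Mup12 (-2.03) in whole liver, and Mup21 in the diet difference of mild (-3.15) and advanced mice (-3.88). With the libraries of these groups only, Mup21 in FPC mild hepatocyte nuclei (-1.60) and Mup12 in advanced against mild CDAHFD whole liver (-2.02) passed, and with the stricter filter Mup21 in the diet difference of mild mice (-3.14). Depth limits Mup12, Mup1 and Mup21 in advanced mice, where single libraries hold few counts.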

Other observations

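Genes on both sides of the Mup cluster moved in both directions. Of 25 measured genes within 1 Mb of the ends of the cluster, 24 could be tested in hepatocyte nuclei. In FPC advanced mice 7 rose and 5 fell (26.5% and 20.4% of all genes), with a median log2 difference of -0.02. In CDAHFD advanced mice 6 rose and 5 fell (30.3% and 29.2% of all genes), with a median of -0.08 (edgeR's quasi-likelihood test with Benjamini-Hochberg adjustment). These counts lie near the shares of all genes and are no result about the neighbours. The 3 largest differences under FPC were those of Zfp37, a zinc finger gene, at 4.86 ± 0.52 (adjusted p = 7.7e-06), Bspry at 4.79 ± 0.29 (adjusted p = 5.0e-08) and Wdr31 at 4.08 ± 0.47 (adjusted p = 1.5e-05). The same genes differed by 3.66 ± 0.47, 5.17 ± 0.71 and 3.60 ± 0.50 under CDAHFD. Among those that fell in both diets, Slc31a1 differed by -0.84 ± 0.13 under FPC and -1.36 ± 0.14 under CDAHFD. Fkbp15 differed by -0.56 ± 0.10 and -0.32 ± 0.10.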
